A study of Ovis aries with 18 samples.

Results

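Predicted miRNA loci without a known seed were the rows of the deposited tables that carried no sheep miRNA name and no related miRNA in the column for a shared seed. There were 94 such rows of 495 in uterine vesicles and 165 of 761 in endometrium, 167 of 768 rows over both tables. Rows with identical values counted once, they came to 66 distinct rows in vesicles and 158 in endometrium. All animals were sheep (Ovis aries), ovariectomized ewes given daily injections of 50 mg of progesterone (P4) over 14 days. The P4 group received nothing else, and the P4+RU486 group also received 50 mg of RU486 (mifepristone, a progesterone receptor antagonist) per day from day 8 to day 14. Ovariectomy removes the animals' own ovarian steroids, so the ewes model progesterone exposure and not a natural cycle. Small RNA was sequenced from extracellular vesicles of the uterine lumen (4 libraries per treatment) and from dissected endometrium (5 per treatment). The vesicles came from a 10 ml flush that passed a 0.22 µm filter and a size exclusion column.

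A miRNA is a short RNA cut from a hairpin precursor and loaded into an Argonaute protein. Its seed, a short stretch near the 5′ end, pairs with messenger RNAs and selects the targets, so miRNAs with one seed form a family. Small RNA reads that map to a hairpin can be called as a predicted locus even where no database holds the miRNA, and a locus with no relative in the seed column has no family by which to infer targets. Fragments of other RNAs can also be called as such loci, and the tables do not tell these cases apart. The rows carry only an identifier made of a chromosome or scaffold name and a number, so no function is known for any of them here.

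The 8 vesicle libraries held between 97202 and 1062646 recovered reads in listed rows, and 1 read was worth 1.10 to 10.4 normalized CPM (CPM, here reads scaled to an adjusted library size). A library with no read of a locus could still hold up to 3, which equals 3.30 to 31.3 normalized CPM depending on the library and covers counting error only. Libraries P01 to P04 are those of P4, and R01 to R04 those of P4+RU486, since the columns show only the treatment's initial and no ewe. In vesicles, 4 of 6 epithelial markers had a row, named or by seed (none for miR-141 and miR-429), and their summed share was 1.17% to 3.03% of the reads in P4 and 1.44% to 2.05% in P4+RU486. P01 was the highest library in several marker lists, though not in all. Of the leukocyte list, 4 of 5 had a row (none for miR-223), with 0.215% to 1.94% of the reads in P4 and 0.216% to 0.495% in P4+RU486. P01 held the 1.94% (95% Wilson interval 1.86% to 2.03%), and the highest of the others was P04 at 0.572%. P01 was also the highest of the 8 libraries in the stromal list (0.111% against at most 0.0604%), the smooth muscle list (1.73% against 1.45%) and the liver or plasma list (0.0576% against 0.0420%), and the lowest in the epithelial list. The stromal, smooth muscle and liver or plasma lists rest on 2 rows each. They had no row for miR-199b, miR-133a, miR-133b, miR-1, miR-122 and miR-192. In the erythroid list (1 row) P01 held 0.451%, below another P4 library at 0.791%. In the ciliated epithelium list P01 and R02 were alike, at 1.86% each. No row was listed for the endothelial marker miR-126.

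The loci without a seed contributed little of the vesicle RNA. They held 4530 recovered reads, 0.167% of all, against 25.6% for the 319 predicted loci listed with a seed and 74.2% for the 80 rows with a sheep miRNA name. Identical rows of every class were each counted in these shares. For loci with a seed this matters: their mean share in P4 was 27.5% with each row counted and 20.9% with identical rows counted once. The median row had 4 reads over the 8 libraries, compared with 23 in loci with a seed and 291.5 in named rows. Many rows rested on very few reads: 44 of 94 (46.8%) had 1 to 3 reads in all, and 27 of these had a single read. The same share was 25.4% in loci with a seed and 26.2% in named rows. With identical rows counted once, 19 of 66 loci without a seed had 1 to 3 reads. That count was not made for the other classes, so part of the contrast may come from identical rows. A read in every library was seen for 15 rows (16.0%), and a read in 1 library alone for 35 (37.2%). These shares were 38.9% and 16.0% in loci with a seed, and 62.5% and 17.5% in named rows.

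**Figure D1:**
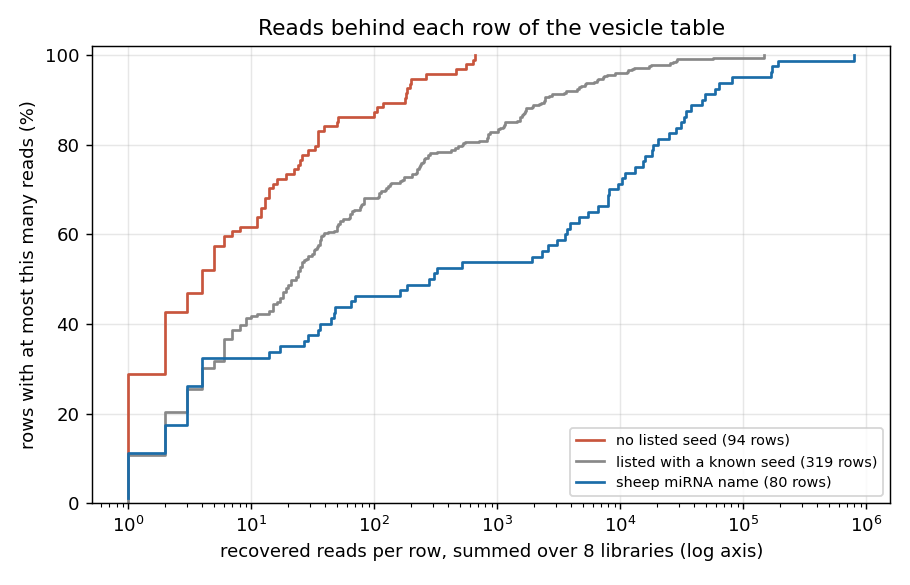
Recovered reads per row of the vesicle table, summed over 8 libraries (x axis, log scale), against the percent of rows with at most that many reads (y axis), for loci without a listed seed, loci with a listed seed and rows with a sheep miRNA name. The curve of loci without a seed lies to the left, with 46.8% of rows at 3 reads or fewer and a median of 4. Identical rows are each counted. Counted once, 19 of 66 loci without a seed had 1 to 3 reads.

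More of these loci were seen in deeper libraries. The deepest library, P03, had a read for 63 of 94 rows, and the shallow libraries P01, P04 and R04 for 35, 29 and 28. At a common depth of 97202 reads, the expected share of loci with a read was 31.3% ± 4.13 (SD, n = 4) for P4 and 32.1% ± 2.44 (SD, n = 4) for P4+RU486. At that depth, loci with a seed stood at 52.9% ± 2.42 (SD, n = 4) and 53.1% ± 1.05 (SD, n = 4), and named rows at 70.5% ± 9.92 (SD, n = 4) and 66.1% ± 2.60 (SD, n = 4). The expected shares of loci without a seed differed between treatments by less than the SD of either group.

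With identical rows counted once, the loci held 0.434%, 0.157%, 0.109% and 0.192% of the reads in P01 to P04, and 0.143%, 0.251%, 0.226% and 0.146% in R01 to R04. The total reads of a library, by which these were divided, still count every identical row. The groups overlapped, and P01 was the highest of the 8 (95% Wilson interval 0.395% to 0.477%). P4 averaged 0.223% ± 0.145 (SD, n = 4) and P4+RU486 0.192% ± 0.0554 (SD, n = 4). Without P01 the mean in P4 was 0.152% ± 0.0417 (SD, n = 3). These are shares of reads from vesicles, so the number of vesicles, their cargo and their cells of origin cannot be told apart.

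A few loci made up most of these reads. The 5 rows with the most reads held 56.9% of the reads of all 94, and the 10 leading rows 77.6%. Even the most abundant, 24_21767, ranked only 94 in the vesicle table by mean. It was at 440.0, 194.7, 130.8 and 400.7 normalized CPM in P01 to P04 and at 332, 222, 660 and 271 in R01 to R04, with overlapping groups. The means were 291.5 ± 151.8 (SD, n = 4) and 371 ± 197 (SD, n = 4).

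The locus 14_8843 was the most even of the 6 loci with a mean of at least 100. It was at 173, 313, 244 and 209.9 in P01 to P04 and at 272, 269, 296 and 167 in R01 to R04, with SDs of 25.3% and 22.9% of the group means. The log2 difference was 0.10 (SE 0.33), with a 95% interval from -0.63 to 0.82.

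X_35685 was also even, apart from 1 library. It was at 94.3, 93.6, 98.9 and 286 in P01 to P04 and at 112, 68.9, 95.6 and 136 in R01 to R04. P04, a shallow library with 30 reads of this locus, lay above all others. The log2 difference was -0.33 (SE 0.45), and 0.07 without P04.

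The locus 11_5569 varied widely between libraries of both treatments. It was at 7.86, 63.6, 128.6 and 38.2 in P01 to P04 and at 56.1, 12.5, 47.8 and 125 in R01 to R04. The treatment means were nearly equal, 59.6 ± 51.3 (SD, n = 4) and 60.4 ± 47.2 (SD, n = 4).

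**Figure D2:**
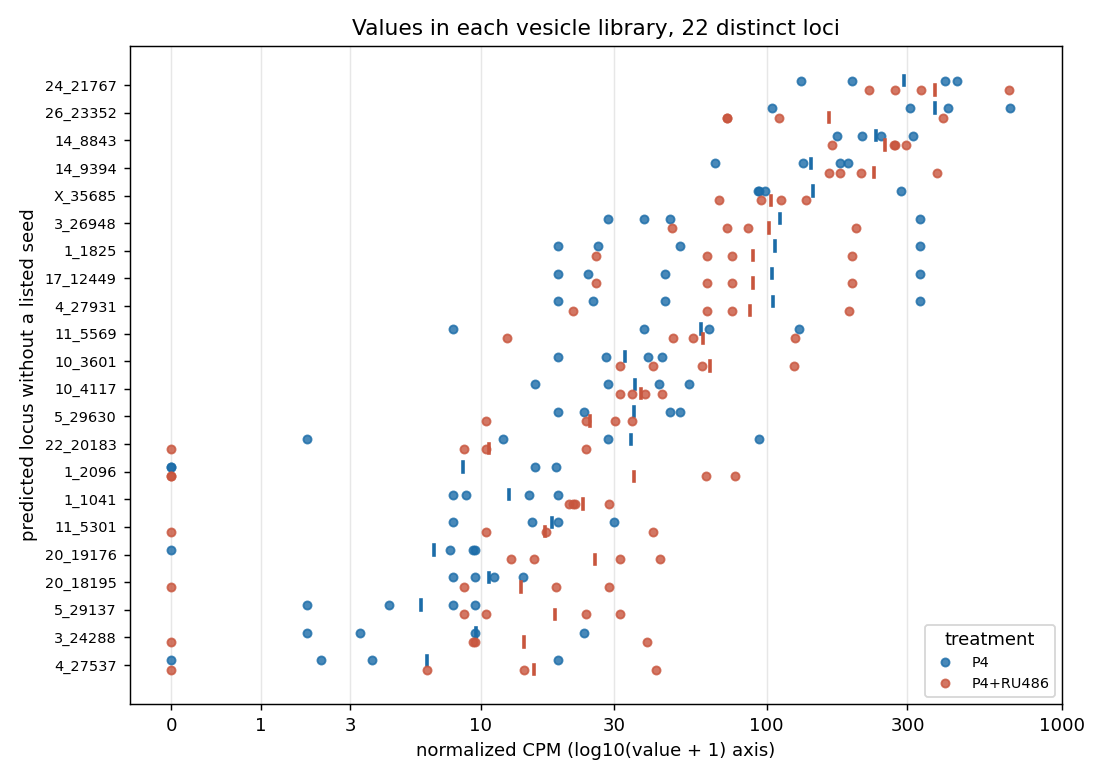
Normalized CPM in each vesicle library (x axis, log10 of value + 1) for the 22 distinct loci with a mean of at least 10, ordered by mean. Points are libraries of P4 (blue) and P4+RU486 (red), and bars are group means. The groups overlap in 20 loci and lie apart in 20_19176 and 1_1041.

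A set of 3 loci on differently named chromosomes, 17_12449, 4_27931 and 1_1825, differed from each other by at most 3 reads in any library. A further locus, 3_26948, followed them less closely. In P01 all 4 rows had 42 reads, and in R02 17_12449, 4_27931, 1_1825 and 3_26948 had 62, 61, 62 and 64. The gap was widest in R01, where the first 3 had 6, 5 and 6 reads and 3_26948 had 11. In P04 the first 3 had 2 reads each and 3_26948 had 4. Reads of near-identical copies can be listed at each copy or split among them by the counting. Whether that applies to these 4 rows was not tested, and their single values are uncertain.

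Libraries of the same treatment differed widely in these rows. 17_12449 was at 330.0, 44.9, 24.2 and 19.1 in P01 to P04 and at 25.9, 194, 76.5 and 62.6 in R01 to R04. P01 and R02 were the high libraries, 1 in each treatment. The 4 rows together took 39.3% (95% Wilson interval 34.8% to 44.1%) of the reads of all 94 loci in P01 and 29.9% (26.8% to 33.0%) in R02. In the other libraries they took 5.32% to 16.7%. These shares and intervals take the reads of the 4 rows as separate, and would be smaller if the same reads were listed at each row. P01 was also the library that stood apart in the leukocyte list above. In R02 the leukocyte share was 0.495%, and the part of RNA from any of these cell types in these rows was not tested.

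**Figure D3:**
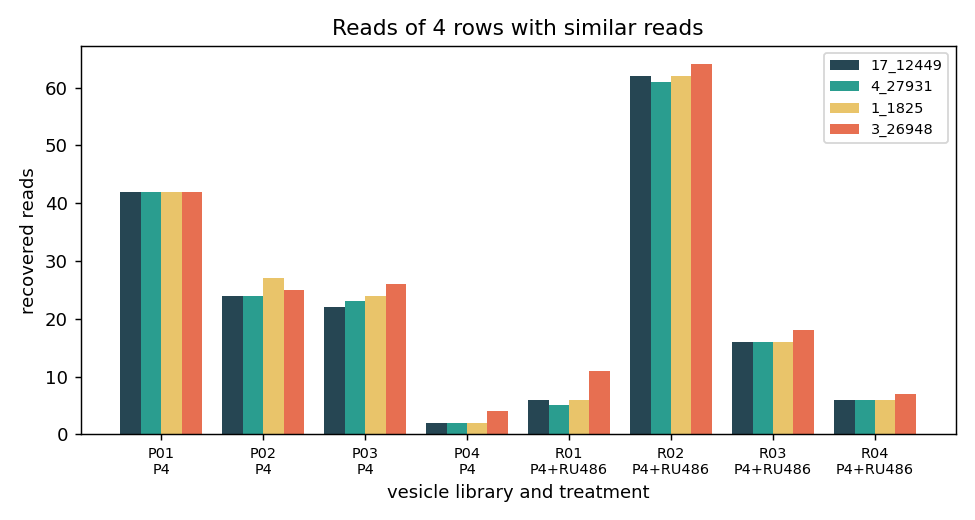
Recovered reads (y axis) of the rows 17_12449, 4_27931, 1_1825 and 3_26948 in each of the 8 vesicle libraries (x axis, with treatment). Within a library the first 3 bars differ by at most 3 reads, with 42 reads in each row of P01 and 61 to 64 in R02, and 3_26948 stands higher in R01 (11 reads against 5 or 6).

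For the treatment comparison, which asked what blocking the progesterone receptor changed in vesicle cargo, 22 distinct loci (23 of 94 rows) reached the mean of 10 normalized CPM needed for the test. None passed the limma test at an adjusted p under 0.05, where 0.437% of all 229 rows did. The smallest adjusted p was 0.334. At an unadjusted p under 0.05, 1 of 22 passed (20_19176), where 14.4% of all rows did. edgeR's quasi-likelihood test and DESeq2 on the same rows also called none of the 22 after adjustment (0.437% and 1.75% of all rows). Unadjusted, edgeR had 2 of 22 (14.8% of all rows) and DESeq2 0 of 22 (14.4%). Over all rows without a filter, edgeR called none of 66 distinct loci (1.21% of all 495 rows) and had 4 unadjusted (8.89%).

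The largest log2 difference was that of 20_19176, which was higher in every P4+RU486 library than in any P4 library. It was at 0, 9.36, 7.69 and 9.54 in P01 to P04 and at 12.9, 15.7, 43.0 and 31.3 in R01 to R04. These values rest on 0 to 9 reads per library. The log2 difference was 2.11 (SE 0.95, 95% interval 0.03 to 4.19, limma adjusted p = 0.334), and the ratio of the means was 3.87. With 1 library left out it ranged from 1.29 (without P01, which had no read) to 2.42 (without P04).

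The other locus without overlap, 1_1041, was at 7.86, 15.0, 8.79 and 19.1 in P01 to P04 and at 21.6, 21.9, 28.7 and 20.9 in R01 to R04. P04 and R04 lay close together, at 2 reads each. The log2 difference was 0.90 (SE 0.62, limma adjusted p = 0.561). In all, 2 of 22 loci had treatments that did not overlap, where 10% of all rows did.

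Among loci with a lower estimate in P4+RU486, 26_23352 had the smallest p. It was at 668, 307, 104 and 410.2 in P01 to P04 and at 73.3, 394.5, 110.0 and 73.1 in R01 to R04. R02 lay among the P4 libraries and P03 close to R03, so the groups overlapped. The means were 372 ± 234 (SD, n = 4) and 163 ± 155.5 (SD, n = 4). On the log2 scale 26_23352 differed by -1.30 (SE 0.64), with a limma adjusted p of 0.334. This estimate ranged from -1.86 to -0.93 with 1 library left out. Without the shallow libraries P01, P04 and R04 together, chosen after seeing the data, it was -0.28 (limma adjusted p = 0.849). Its smallest adjusted p over the alternatives was 0.159 (limma without P03).

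For loci with a higher estimate, 14_9394 was at 189, 178, 133 and 66.8 in P01 to P04 and at 177, 379, 163 and 209 in R01 to R04. The treatments overlapped, with R02 highest and P04 lowest. The log2 difference was 0.73 (SE 0.43, limma adjusted p = 0.461). 5_29137 differed by 1.48 (SE 0.85), on 1 to 10 reads per library, and 10_3601 by 0.82 (SE 0.54). 10_3601 was at 19.1 to 44.0 in P4 and 31.3 to 124 in P4+RU486, with R03 the highest, and its difference was 0.44 without R03. That of 14_9394 was 0.41 without P04 and 0.46 without R02.

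Of the loci with lower estimates, 22_20183 was at 94.3, 1.87, 12.1 and 28.6 in P01 to P04 and at 8.63, 0, 23.9 and 10.4 in R01 to R04. Its log2 difference was -1.32 (SE 1.25), -0.52 without P01 and -0.37 without R02. 5_29630 and 11_5301 differed by -0.49 (SE 0.60) and -0.84 (SE 1.09), and 11_5301 turned to 0.25 without R03. The estimate of 5_29630 was -0.14 without R04. 1 vesicle row that the endometrium table did not list, 1_2096, had 2, 10, 0 and 0 reads in P01 to P04 and 0, 25, 13 and 0 in R01 to R04. The deepest library, P03, held none of it, and its log2 difference was 0.98 (SE 1.80).

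Taking all 22 loci, 16 had a positive log2 difference and 6 a negative one, where 51.5% of all 229 rows had a positive one. With the 4 rows of similar reads taken as 1, 13 of 19 were positive. Over all 22 loci the median log2 difference was 0.36, beside 0.04 over all rows. This median lay between 4_27931 (0.35) and 1_1825 (0.37), which are among these 4 rows. It was not recomputed with the 4 rows taken as 1, so it does not show a shift of the loci. For these 4 rows the sign was not settled: limma gave 0.35 to 0.45 (SE 0.73 to 0.87), while their mean values were lower in P4+RU486 (0.839 to 0.918 of those in P4), and edgeR and DESeq2 gave negative differences.

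The precision was low for these loci. The median SE was 0.85 on the log2 scale, beside 0.51 over all rows, at a median mean of 42.3 normalized CPM, beside 123. The half-width of the 95% interval had a median of 1.85, or 3.60-fold, and was 1.65-fold at its narrowest (14_8843). Of the 22 estimates, 15 lay within 1 SE of 0. The widths come from the spread between libraries and are not limits of detection. Calls used a p adjusted over all rows tested, so changes larger than these widths could also be missed.

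**Figure D4:**
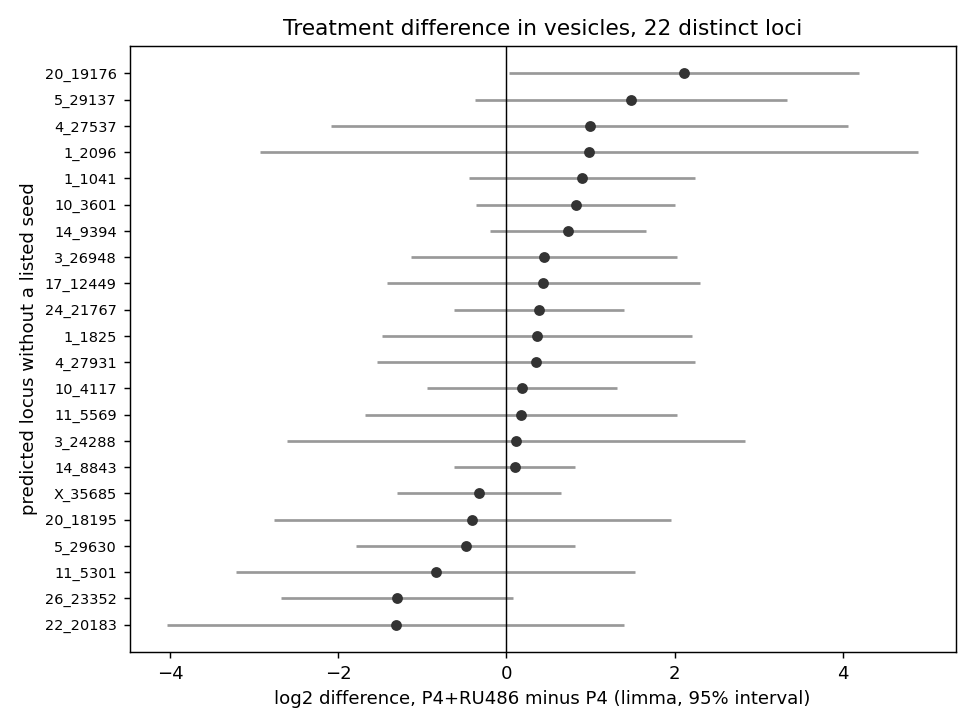
Log2 difference between treatments in vesicles (x axis, P4+RU486 minus P4, points) with 95% intervals from limma (lines) for the 22 distinct loci tested, ordered by difference. The intervals include 0 except that of 20_19176, which begins at 0.03 before adjustment over rows.

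The other 71 rows (44 distinct) fell below the mean of 10. Nearest to it were 4_27537 just above, at 10.9 normalized CPM and 15 reads in all, and 12_6233 just below, at 8.95 and 24 reads. For 12_6233 the reads were 0, 14, 3 and 2 in P01 to P04 and 2, 0, 3 and 0 in R01 to R04.

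Identical values among the low rows mostly meant single reads. The largest set, 9 loci including 1_262, had 1 read in P03 and none elsewhere, a pattern that 27 rows of any class shared. The next sets were 6 loci including 19_14747, with 1 read in P02, and 4 including 12_6754, with 1 read in R03. Identity here does not show a shared sequence. In 3 pairs identity ran over several libraries: 20_18195 with 20_18782 (35 reads in 7 libraries), 7_33080 with 2_16069 (13 reads in 6) and 4_27993 with 4_28608 (5 reads in 3). The last 2 of these pairs were also identical in the endometrium table. So were 1_262 with 7_32116, of the set with 1 read in P03, and JH923643.1_37218 with 3_25746, which had 2 reads each in P03. Whether any of these pairs share a sequence was not tested.

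Reads in 1 treatment alone were seen for 39 of 94 rows, 27 in P4 and 12 in P4+RU486. Identical rows are each counted here, among them the 9 of the set of 1_262 and the 6 of that of 19_14747, all in P4. The share over rows of all classes was not computed, so these counts are not shown to be particular to these loci. Of these, 38 had 1 to 3 reads in all. The exception, 5_28869, had 3 reads in P03 and 1 in P04, and 23_21225 had its 3 reads in R01. 14_9284 had 1 read each in P01 and P04, 5_28963 had 1 in R04 and 3_23769 had 1 in P01. No fold was computed here for these rows, since P4 held the deepest library and the counts lie at the floor.

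In the authors' deposited table for vesicles, no locus without a seed had an adjusted p under 0.05, where 1.82% of all rows did, and the smallest was 0.22 (5_29137). A positive fold in the authors' deposited table stands for a higher value in P4, as the sign of the difference in means was the same in 199 of the 229 tested rows. Folds of at least 2 in either direction were listed for 55 of 94 rows in the authors' deposited table, where 39.8% of all rows had one. With identical rows counted once, 30 of 66 had one in the authors' deposited table. They went with few reads: 38 of the 44 rows with 1 to 3 reads had such a fold (14 of 19 with identical rows counted once), and 1 of the 12 rows with over 100 reads. That row was 26_23352, at 3.06 in the authors' deposited table. The highest, 7.11 in the authors' deposited table, was that of 5_28869, which had 4 reads in all. In 6 of the 22 tested loci, the 4 rows of similar reads, 10_4117 and 11_5569, the sign of the authors' deposited fold differed from that of the difference in mean values.

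**Figure D5:**
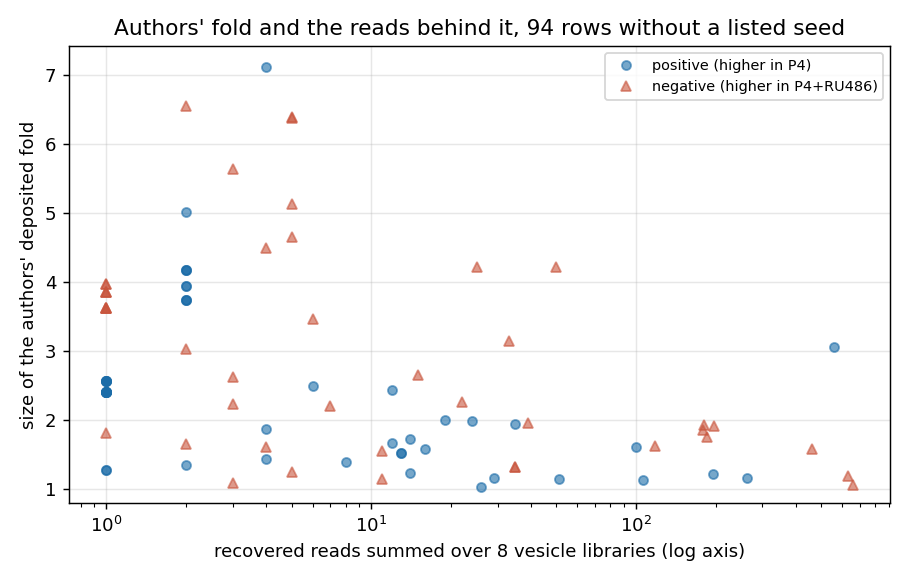
Size of the fold in the authors' deposited table for vesicles (y axis) against recovered reads summed over 8 libraries (x axis, log scale) for the 94 rows without a listed seed, with circles for folds higher in P4 and triangles for folds higher in P4+RU486. Of the 12 rows with over 100 reads only 26_23352, at 3.06, has a fold of at least 2.

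In endometrium the value columns match no label, so only the authors' deposited fold and adjusted p were used, with a sign whose numerator is not named. The authors' deposited table held 165 loci without a seed, and none was listed with an adjusted p under 0.05, where 1.18% of all 761 rows were. The locus nearest to it was 6_31046, listed at an adjusted p of 0.050 and a fold of 11.76 in the authors' deposited table. That p is printed with few digits, so whether its unrounded value is under 0.05 is not known. 6_31046 was not listed for vesicles. The next positive folds by adjusted p in the authors' deposited table were 1.57 for 3_26449 (0.286), 8.10 for 2_15235 (0.323), 4.35 for 3_24463 (0.343) and 1.66 for 1_1825 (0.449). The negative ones in the authors' deposited table were -2.87 for 9_34546 (0.190), -1.59 for 10_4117 (0.193), -8.30 for 3_26008 (0.288), -1.47 for 2_15683 (0.366) and -2.51 for X_35647 (0.428).

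Most loci seen in vesicles were also listed for endometrium. Of the 94 vesicle rows, 92 (97.9%) were in both tables, and the exceptions were 1_2096 and 6_30645. The other classes were alike, at 98.4% of vesicle loci with a seed and 100% of named vesicle rows. In the other direction, 92 of 165 endometrium loci (55.8%) were listed for vesicles, beside 71.0% of endometrium loci with a seed and 52.6% of named rows. The authors' deposited fold in endometrium was at least 2 in size for 11 of the 92 shared loci (11.96%) and for 25 of the 73 loci of endometrium alone (34.2%), where 15.8% of all rows had one. The split into shared rows and rows of endometrium alone was not computed over all classes. It is thus not shown to be particular to these loci, and the reads behind the endometrium folds were not examined. For the 10 vesicle loci with the most reads, the folds in the authors' deposited table for endometrium ran from 1.06 to 1.66 in size, beside a median of 1.33 over the 92 shared loci. The highest was that of 1_1825, and 11_5569, at -1.43 in the authors' deposited table, had a negative one. For 26_23352 it was 1.06, beside 3.06 in the authors' deposited table for vesicles. A difference in response between the tissues was not tested.

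The identifiers placed the 167 loci on 27 chromosome names and 2 scaffolds. They made up 27.1% of all predicted loci of both tables. By name, the most were on 3 (19 of 58), 1 (15 of 47), 11 (12 of 37) and X (11 of 63), and on 22 they were 7 of 14. The numbers in the identifiers rise from 1 chromosome name to the next in text order without overlap, so they follow an order along the genome list, though the distance between neighbours is not given. By number, 28 of the 165 loci that share a chromosome name with other predicted loci had such a locus within 5. Of these, 16 were nearest to another locus without a seed, with pairs such as 1_1357 and 1_1358 counted from both sides. The same counts were not made for loci with a seed or for all predicted loci. They therefore do not show that loci without a seed lie together.

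Runs of such loci included X_35644, X_35645, X_35647 and X_35651. In endometrium X_35645 and X_35651 had identical values, with a fold of -1.48 in the authors' deposited table. In the authors' deposited table X_35644 had 5.49 and X_35647 had -2.51 (adjusted p of 0.524 and 0.428). In vesicles only X_35647 was listed, with 1 read. A second pair, 4_27537 and 4_27539, had 15 and 2 reads in vesicles, and 1_1357 and 1_1358 had 3 and 4. 14_9371 and 14_9374 had 19 and 6 reads, beside 463 for 14_9394 on the same chromosome.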

How the data were processed

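Adapters were trimmed with cutadapt 1.11, the genome build was Oar_v3.1 and edgeR was used, per the submitters' processing notes. The aligner and locus predictor are not given in sources used here. For vesicles the authors deposited a normalized signal, in which whole reads are scaled to an adjusted library size. In each column 100% of values were whole multiples of 1 read (tolerance 0.1 read). Each table also has a signed fold change, treated here as a score, and an adjusted p-value (FDR), both as deposited by the authors.

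Members were rows whose name did not begin with oar- and whose seed cell was "-"; 2 vesicle rows reading #N/A were not members. The members and lists were chosen with earlier results of these data known. The 10 endometrium value columns match no label and were compared only as text, to find identical rows.

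limma (3.58.1, trend, R 4.3.3) was fitted to log2(value + 1) on the 229 vesicle rows whose mean reached 10, and p-values were adjusted by Benjamini-Hochberg over all of them, with calls under 0.05. Fold changes are on that log2(value + 1) scale, which can understate changes of low rows. Where a library had no read, the difference could also be larger than in other fits or opposite to the means. For 20_19176 it was 2.11, beside 1.74 in edgeR and 1.83 in DESeq2 on the same rows. For 20_18195 it was -0.41, at means of 10.7 in P4 and 14.0 in P4+RU486. edgeR (4.0.16) and DESeq2 (1.42.0) on recovered reads were alternatives, as were other pseudocounts, filters, scalings, a depth covariate and left-out libraries. The fits were also run on simulated counts. These had 1 fixed spread for all rows, not fitted to these loci, so they do not show how well the fits work on them. Named loci were the 10 highest means, the 5 smallest p in each direction, the 5 smallest authors' adjusted p of each sign in endometrium, the 3 largest identical sets, the loci nearest the mean of 10, and up to 5 with reads in 1 treatment alone. Other loci in the text were chosen after their values were seen. Vesicle libraries came from separate ewes.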

Additional observations from a re-analysis of the deposited data

Results flagged for a closer look

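Of 46 groups of 4 libraries examined (23 quantities by treatment), 7 held a library that stood far from the others. For normally distributed values chance flags about 1 in 20 separate groups. The values here were normalized CPM without a log, and all 7 flags were high values, so the rate for these data is not known. Of the 7, 4 were the same library in rows with similar reads and are not separate. In P4, P01 stood apart at 330.0 normalized CPM in each of these 4 rows. The other P4 libraries were at 28.6 to 46.8 for 3_26948, 19.1 to 44.9 for 17_12449 and 4_27931, and 19.1 to 50.5 for 1_1825. These rows had 42 reads each in P01. X_35685 was at 286 in P04, against 93.6 to 98.9 in the other P4 libraries. In P4+RU486, 26_23352 was at 394.5 in R02, against 73.1 to 110.0 in the others, and 1_1041 was at 28.7 in R03, against 20.9 to 21.9.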

How the results depend on the processing

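No locus without a seed passed in any of the 20 alternatives of the vesicle fit, while calls over all rows ranged from 0 to 6, and the smallest adjusted p of such a locus was 0.159 (26_23352, limma without P03). Of 19 named and tested loci, 10 kept their sign in every alternative that tested them and 9 did not. With edgeR on the same rows, edgeR without a filter and DESeq2, the log2 differences were -0.11, -0.019 and -0.23 for 3_26948, -0.23, -0.14 and -0.37 for 1_1825, -0.20, -0.11 and -0.34 for 17_12449, -0.24, -0.14 and -0.38 for 4_27931, and -0.13, -0.19 and -0.032 for 11_5569. For 10_4117 they turned with edgeR without a filter (-0.0077) and DESeq2 (-0.020). Without P01, P04 and R04 together, chosen after seeing the data, 11_5569 was at -1.45 and 10_4117 at -0.31. With 1 library left out the range was -0.039 to 0.28 for 14_8843, -0.47 to 0.066 for X_35685, -0.12 to 1.23 for 1_1825, -0.046 to 1.32 for 17_12449, -0.15 to 1.23 for 4_27931, -0.56 to 0.77 for 11_5569, -1.55 to 0.25 for 11_5301 and -0.14 to 0.43 for 10_4117. The cause was not tested. The share of reads held by the loci ranged from 0.152% to 0.261% in P4 and from 0.172% to 0.208% in P4+RU486 with 1 library left out. Counting each row, the loci were 94, and with the #N/A rows 67, in place of 66. The alternatives for endometrium were not run, since its columns match no label. No paired analysis was possible because the treatments were given to different ewes and the numbers in the column names are tied to no ewe or batch.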
